A study of Mus musculus with 8 samples.

Results

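The genes described here were Flna, Actb, Actg1, Myh9, Tln1, Vcl, Zyx, Vim and Coro1a, 9 of the 23361 gene symbols in the expression table, taken by symbol as genes of the actin cortex, its adhesion linkers and the intermediate filament network. Their levels were compared between Nrp-1+ and Nrp-1- induced regulatory T cells (iTreg). Naïve CD4+ T cells of wild-type Foxp3-RFP reporter mice, which mark Foxp3-expressing cells with a red fluorescent protein, were activated by anti-CD3/CD28 beads at 1 bead for 5 cells, with 50 U/ml IL-2 and 2 ng/ml TGF-β, for 3 days (a time label reads day 5). Living CD4+ Foxp3-RFP+ cells were then sorted by surface Nrp-1 (neuropilin-1, a semaphorin and VEGF co-receptor), so both groups shared the strain, reporter, beads, cytokines and Foxp3-RFP gate and differed in Nrp-1. Each group had 4 libraries labelled as biological replicates, and nothing in the labels says whether they came from separate mice or cultures, so p-values measure the spread between these libraries. Levels are FPKM (fragments scaled by transcript length and by the mapped total of the library), which allow comparison between genes per length.

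Actin filaments lie in a thin cortex under the T cell membrane, where filamin crosslinks them, nonmuscle myosin II pulls on them and coronin helps to remodel their branched networks. Talin and vinculin connect the cortex to integrins, zyxin gathers at strained actin fibres, and vimentin forms a separate filament system that T cells rearrange when they polarise or squeeze through tissue. In T cells these proteins shape the immune synapse, adhesion and migration.

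Among the 9 genes, Vim, Vcl and Flna were higher in Nrp-1+ iTreg, by 23.8%, 49.8% and 8.71% of the Nrp-1- mean. Zyx and Coro1a were lower, with differences of -12.9% and -8.71%. Actb, Actg1, Myh9 and Tln1 did not pass the test, and their group means differed by 3.46%, 3.96%, -0.228% and -2.21%. The test was limma on log2(FPKM + 1) across the 10467 genes with a mean of at least 1 FPKM, and a gene was called at a Benjamini-Hochberg adjusted p under 0.05. All 9 genes passed that filter. The 3 genes called higher and 2 called lower stood beside 20.9% of all tested genes called higher and 20.0% called lower, so 40.9% of all tested genes were called in one direction or the other. The groups did not overlap for 6 of the 9 genes, against 39.5% of all tested genes, and the median log2 fold change of all tested genes was -0.016.

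**Figure D1:**
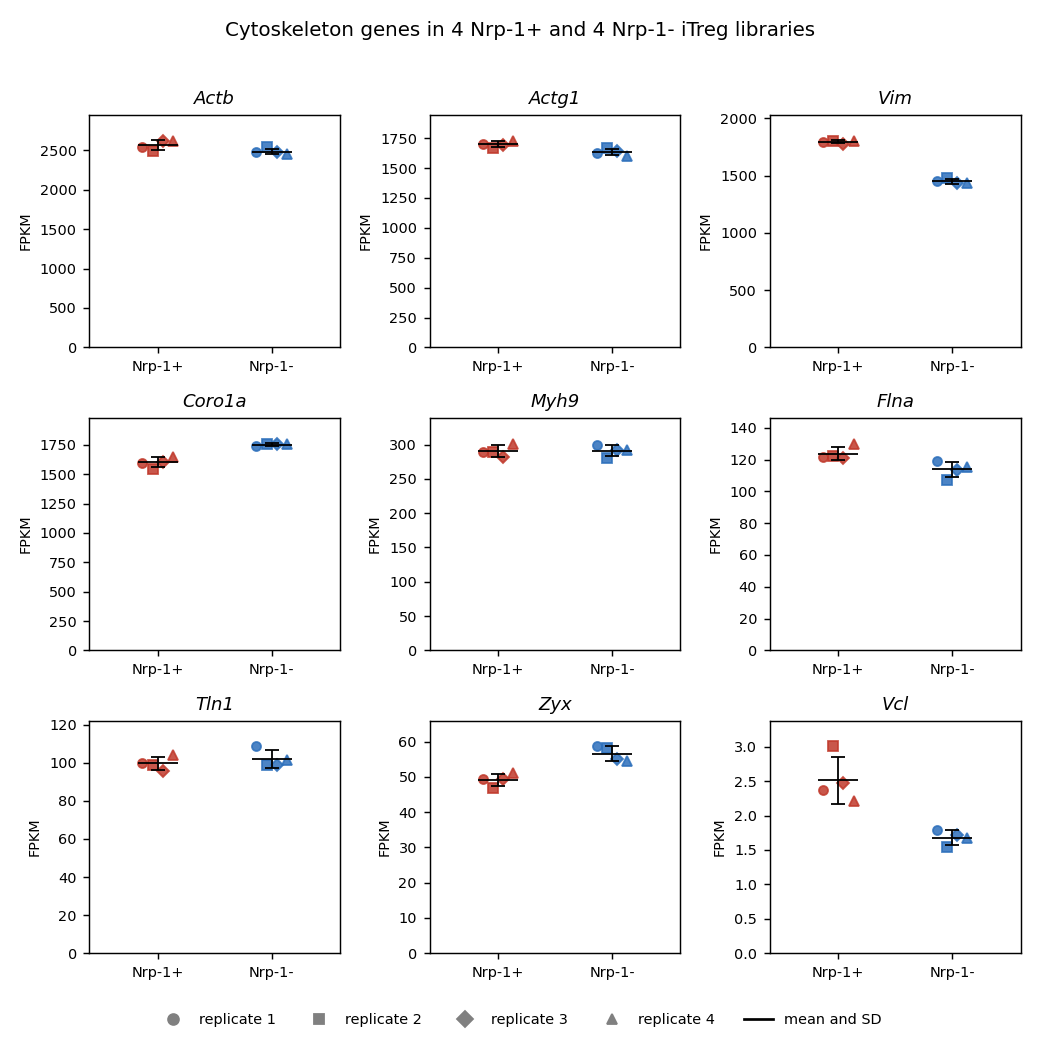
FPKM of each of the 9 genes in 4 Nrp-1+ (red) and 4 Nrp-1- (blue) iTreg libraries on linear axes from 0, with marker shapes for replicate numbers and lines for the group mean and SD. The Vim groups are set well apart (1774–1805 against 1433–1475 FPKM), Coro1a and Zyx lie lower in Nrp-1+ iTreg, and the Myh9 and Tln1 groups overlap.

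The levels of these genes spanned 3 orders of size. Of all genes apart from short RNA genes, ranked by mean FPKM over the 8 libraries, Actb stood at place 62, Coro1a at 80, Actg1 at 81 and Vim at 85. Myh9 was at place 276, Flna at 726, Tln1 at 865, Zyx at 1744 and Vcl at 9375. In Nrp-1+ iTreg the order of the levels was Actb, Vim, Actg1, Coro1a, Myh9, Flna, Tln1, Zyx and Vcl, and no neighbours in this order overlapped between libraries. In Nrp-1- iTreg the order began with Actb, Coro1a, Actg1 and Vim and then went on as before, and here Flna and Tln1 overlapped. The exchange of places showed in every library. Vim FPKM divided by Coro1a FPKM was 1.12, 1.17, 1.10 and 1.09 in Nrp-1+ replicates 1 to 4 and 0.836, 0.840, 0.817 and 0.815 in Nrp-1- replicates 1 to 4, a ratio chosen after the values were seen and not tested.

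Some facts of the libraries bear on these levels. Nrp1 itself was 21.5 ± 0.709 FPKM (SD, n = 4) in Nrp-1+ and 4.95 ± 0.262 FPKM in Nrp-1- iTreg, and Foxp3 was 115.8 ± 3.72 and 108.8 ± 1.20 FPKM. Short RNA genes took 1.77% to 43.9% of the summed FPKM, and libraries with high shares occurred in both groups. Without short RNA genes the summed FPKM was 672586 to 691987 in Nrp-1+ and 682822 to 729147 in Nrp-1- iTreg, so a rescaling to a fixed sum moves Nrp-1+ values up relative to Nrp-1- values. The table holds no counts. Steps between the values of low genes put depth at about 15600000 to 24300000 fragments per library, with no split by group. Nothing in bulk RNA tells fewer cells with a transcript from less of it per cell.

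The defining platelet markers Pf4, Ppbp, Gp9 and Treml1 were listed at 0 in every library, and all 7 platelet markers summed to 0.369–0.568 FPKM in Nrp-1+ and 0.467–0.650 FPKM in Nrp-1- iTreg. Of 9 myeloid markers, 8 were in the table, S100a8 and S100a9 were at 0, and the sum was 6.46–7.17 against 5.38–6.21 FPKM, nearly all of it Itgam, which was called higher (6.70 ± 0.252 against 5.56 ± 0.154 FPKM, limma adjusted p = 0.00136). The 6 CD8 and NK markers, none of them at 0 in every library, summed to 8.26–9.64 against 10.0–11.8 FPKM, and Cd8b1 was called lower (7.86 ± 0.742 against 10.0 ± 0.935 FPKM, limma adjusted p = 0.0119). The 6 B cell markers, with Ms4a1 and Pax5 at 0, summed to 5.21–5.96 against 4.01–5.83 FPKM, and 8 stromal and erythroid markers in the table, none at 0 in every library, to 64.7–69.6 against 62.9–70.6 FPKM. That last sum was mostly Pecam1 (59.0 against 62.4 FPKM, not called) and held moves in both directions, since Hba-a1, for a haemoglobin chain, was called higher at 6.10 ± 0.958 against 2.52 ± 0.585 FPKM (log2 fold change 1.02, limma adjusted p = 0.00051), while Col3a1, under the filter and not tested, was 0.156 ± 0.271 against 0.696 ± 0.417 FPKM. All 10 T and Treg markers in the table were above 1 FPKM on average, with 4 called higher (Nrp1, Foxp3, Il2ra and Ikzf4) and 3 called lower (Ctla4, Cd3d and Cd3g). A cell cycle list differed far more, with 15 of 15 genes called higher in Nrp-1+ iTreg and sums of 2304–2372 against 1261–1290 FPKM. The part of these markers in the results below was not tested.

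Actb and Actg1 encode the cytoplasmic β- and γ-actins, the subunits of the cortical filaments. Actb lies on chromosome 5 (142903115 to 142906754, minus strand) and Actg1 on chromosome 11 (120345690 to 120348542, minus strand) of GRCm38, the build named in the submitters' processing notes, in the GENCODE M21 annotation. Over their coding sequences of 1128 bases the transcripts are 88.7% identical, with identical runs of up to 62 bases, so short reads can be shared between them. The first 30 coding bases, which hold the codons that set the proteins apart, are shown with the bases that differ in capitals.
Actb: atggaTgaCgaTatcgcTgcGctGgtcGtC
Actg1: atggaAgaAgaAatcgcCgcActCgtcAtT

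Actb measured 2545.5, 2489.2, 2619.5 and 2620.0 FPKM in Nrp-1+ replicates 1 to 4 and 2477.6, 2535.3, 2470.5 and 2447.2 FPKM in Nrp-1- replicates 1 to 4. The ranges overlapped through Nrp-1+ replicate 2 and Nrp-1- replicate 2. The means were 2568.6 ± 63.5 and 2482.6 ± 37.4 FPKM (SD, n = 4 each), and the log2 fold change was 0.049 ± 0.029 (SE) with a limma adjusted p of 0.2085. Its 95% interval ran from -0.017 to 0.11.

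Actg1 measured 1701.6, 1670.4, 1693.0 and 1728.7 FPKM in Nrp-1+ replicates 1 to 4 and 1623.1, 1664.4, 1645.3 and 1602.4 FPKM in Nrp-1- replicates 1 to 4. Every Nrp-1+ library lay above every Nrp-1- library, but the gap between the groups was small beside the spread within them. The means were 1698.4 ± 24.1 and 1633.8 ± 26.9 FPKM, with a log2 fold change of 0.056 ± 0.024 (SE) and a limma adjusted p of 0.102. When the libraries were rescaled to a fixed sum without short RNA genes, both actins passed the test, with log2 fold changes of 0.11 for Actb (limma adjusted p = 0.0283) and 0.12 for Actg1 (limma adjusted p = 0.0139). The GC and length correction moved them the other way, to 0.011 for Actb (limma adjusted p = 0.821) and 0.016 for Actg1 (limma adjusted p = 0.679).

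A factor common to a whole library, such as the fixed sum, leaves ratios within that library as they are, whereas quantile normalization can move them. The GC and length correction can move them too, and it was not applied to the ratios tested here. The share of Actb in the sum of Actb and Actg1 FPKM was 59.9%, 59.8%, 60.7% and 60.2% in Nrp-1+ replicates 1 to 4 and 60.4%, 60.4%, 60.0% and 60.4% in Nrp-1- replicates 1 to 4. The groups overlapped, at 60.2% ± 0.406 and 60.3% ± 0.192 (SD, n = 4; two-sided exact permutation p = 0.657, which is also the Benjamini-Hochberg value over the 3 ratios tested). The difference of -0.119 percentage points was -0.302 without Nrp-1+ replicate 3 (exact permutation p = 0.114), -0.214 without Nrp-1- replicate 3, -0.0332 without Nrp-1+ replicate 1 and -0.00197 without Nrp-1+ replicate 2 (exact permutation p = 1). The 4 muscle actins together reached 0.0205 to 0.404 FPKM.

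Flna encodes filamin A, a large dimer that crosslinks actin filaments and ties them to integrin tails. The gene lies on the X chromosome (74223461 to 74249820, minus strand). It measured 121.7, 122.4, 121.0 and 130.1 FPKM in Nrp-1+ replicates 1 to 4 and 119.0, 107.5, 113.6 and 115.5 FPKM in Nrp-1- replicates 1 to 4. The groups did not overlap, although Nrp-1- replicate 1 came close to the lowest Nrp-1+ library and Nrp-1+ replicate 4 stood above the other libraries of its group. Flna rose from 113.9 ± 4.84 to 123.8 ± 4.23 FPKM (SD, n = 4), a log2 fold change of 0.12 ± 0.037 (SE; limma adjusted p = 0.0309). The call was lost without Nrp-1+ replicate 2 (limma adjusted p = 0.0543) or replicate 4 (0.0653) and without Nrp-1- replicate 2 (0.0621), replicate 3 (0.0657) or replicate 4 (0.0516), while the log2 fold change stayed between 0.092 and 0.14 with any 1 library left out. Quantile normalization also ended the call (log2 fold change 0.11, limma adjusted p = 0.0733), and the fixed sum raised the log2 fold change to 0.18.

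Set against the filament subunit, Flna FPKM was 4.78%, 4.92%, 4.62% and 4.97% of Actb FPKM in Nrp-1+ replicates 1 to 4 and 4.80%, 4.24%, 4.60% and 4.72% in Nrp-1- replicates 1 to 4. The groups overlapped here, and the difference of the mean log2 ratios was 0.072 (two-sided exact permutation p = 0.171, 0.257 after adjustment over the 3 ratios). With 1 library left out the difference ran from 0.0341, without Nrp-1- replicate 2, to 0.0944, without Nrp-1- replicate 1, and with quantile normalization it turned to -0.0189 (exact permutation p = 0.886).

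Myh9 encodes the heavy chain of nonmuscle myosin IIA, the main contractile motor of T cells, and lies on chromosome 15 (77760587 to 77842175, minus strand). It measured 289.4, 289.8, 281.6 and 301.5 FPKM in Nrp-1+ replicates 1 to 4 and 300.1, 280.5, 292.4 and 292.0 FPKM in Nrp-1- replicates 1 to 4. The ranges lay almost on top of each other. The means were 290.6 ± 8.20 and 291.3 ± 8.08 FPKM, the log2 fold change was -0.0033 ± 0.029 (SE; limma adjusted p = 0.941), and the 95% interval was -0.070 to 0.063. The estimate was 0.059 ± 0.0408 (SE) with the fixed sum, 0.0048 ± 0.0794 with quantile normalization, 0.0030 ± 0.0290 with size factors and -0.019 ± 0.0240 with the GC and length correction. Its relative Myh10, the heavy chain of nonmuscle myosin IIB, rose from 1.12 ± 0.233 to 1.86 ± 0.0397 FPKM (log2 fold change 0.44, limma adjusted p = 0.00424). Myh10 was a small part of the total, since Myh9 held 99.4% of the summed nonmuscle heavy chain FPKM in Nrp-1+ libraries and 99.5% to 99.7% in Nrp-1- libraries.

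Tln1 encodes talin 1, which binds integrin tails, activates them and opens binding sites for vinculin under load. It lies on chromosome 4 (43531519 to 43562691, minus strand) and shares 360 bases of exon with Creb3 on the opposite strand. Tln1 measured 100, 98.95, 95.58 and 104.1 FPKM in Nrp-1+ replicates 1 to 4 and 108.5, 98.81, 98.81 and 101.6 FPKM in Nrp-1- replicates 1 to 4. The groups overlapped, with means of 99.7 ± 3.51 and 101.9 ± 4.56 FPKM and a log2 fold change of -0.032 ± 0.038 (SE; limma adjusted p = 0.5335; 95% interval -0.12 to 0.055). Creb3, which codes for a transcription factor, fell from 28.6 ± 0.992 to 24.4 ± 1.18 FPKM (log2 fold change -0.22, limma adjusted p = 0.00264), and its part in the Tln1 values was not tested.

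Vcl encodes vinculin, which binds stretched talin and actin together, and lies on chromosome 14 (20929398 to 21033676, plus strand). It was by far the lowest of the 9 genes, with about 140 to 310 fragments per library. Vcl measured 2.37, 3.00, 2.47 and 2.22 FPKM in Nrp-1+ replicates 1 to 4 and 1.79, 1.54, 1.71 and 1.68 FPKM in Nrp-1- replicates 1 to 4. No Nrp-1+ library was as low as any Nrp-1- library, and Nrp-1+ replicate 2 was the highest. Vcl rose from 1.68 ± 0.106 to 2.51 ± 0.342 FPKM (SD, n = 4), with a log2 fold change of 0.39 ± 0.077 (SE; limma adjusted p = 0.00461) on a scale whose added 1 shrinks changes at such levels. The ratio of the group means was 1.498. In the annotation 25.5% of the Vcl exon bases, 2090 bases, also belong to Ap3m1 on the opposite strand, and Ap3m1 was 15.01 ± 0.212 against 14.7 ± 0.333 FPKM (log2 fold change 0.029, limma adjusted p = 0.369). The sources name different library kits, so it is open whether reads of this overlap were assigned by strand.

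Because talin and vinculin act as partners, their ratio was also tested. Tln1 FPKM divided by Vcl FPKM was 42.2, 32.9, 38.7 and 47.0 in Nrp-1+ replicates 1 to 4 and 60.6, 64.3, 57.7 and 60.6 in Nrp-1- replicates 1 to 4. The groups were clearly apart, at 40.2 ± 5.92 and 60.8 ± 2.71. The difference of the mean log2 ratios was -0.61, and the two-sided exact permutation p of 0.0286 is the smallest that 4 against 4 libraries allow, with 0.0857 after adjustment over the 3 ratios. The related gene Ctnna1, for the α-catenin that links cadherin complexes to actin, rose from 23.5 ± 0.843 to 28.3 ± 0.542 FPKM (log2 fold change 0.26, limma adjusted p = 0.000258).

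Zyx encodes zyxin, a LIM protein that is recruited to strained actin and to adhesion sites, where it binds Ena/VASP proteins. It lies on chromosome 6 (42349630 to 42360213, plus strand). Zyx measured 49.5, 46.9, 49.4 and 51.1 FPKM in Nrp-1+ replicates 1 to 4 and 58.6, 58.0, 55.0 and 54.4 FPKM in Nrp-1- replicates 1 to 4. All Nrp-1+ libraries lay below all Nrp-1- libraries. Zyx fell from 56.5 ± 2.11 to 49.2 ± 1.71 FPKM, a log2 fold change of -0.20 ± 0.035 (SE; limma adjusted p = 0.00268). With the libraries rescaled to a fixed sum the log2 fold change was -0.13 and the call was lost (limma adjusted p = 0.0589). The neighbouring gene Epha1, which overlaps Zyx on the other strand, stayed at or under 0.206 FPKM. Of the other zyxin family genes, Trip6 fell from 1.53 ± 0.321 to 0.948 ± 0.146 FPKM (log2 fold change -0.37, limma adjusted p = 0.0235). Only its Nrp-1- mean was above 1 FPKM, so Trip6 passed the filter through the group where it was higher, and its call is given as a description. Lpp was 1.36 against 1.40 FPKM and Limd1 was 27.7 against 27.9 FPKM, neither of them called (limma adjusted p = 0.809 and 0.776).

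Vim encodes vimentin, the intermediate filament protein of lymphocytes and mesenchymal cells, which stiffens the cell and positions organelles. It lies on chromosome 2 (13573927 to 13582826, plus strand). Vim measured 1796.7, 1805.1, 1774.4 and 1803.4 FPKM in Nrp-1+ replicates 1 to 4 and 1454.2, 1475.1, 1432.5 and 1435.8 FPKM in Nrp-1- replicates 1 to 4. The groups were far apart for their spread, which was 0.787% of the mean in Nrp-1+ and 1.35% in Nrp-1- iTreg. Vim rose from 1449.4 ± 19.6 to 1794.9 ± 14.1 FPKM (SD, n = 4), a log2 fold change of 0.31 ± 0.022 (SE; limma adjusted p = 1.81e-05). This was the smallest adjusted p of the 9 genes. The log2 fold change stayed between 0.30 and 0.32 with any 1 library left out, but quantile normalization gave 0.47 ± 0.179 (SE) with a limma adjusted p of 0.0704.

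Coro1a encodes coronin 1A, a leukocyte protein that acts on Arp2/3-branched actin and is needed for the survival and migration of naïve T cells. It lies on chromosome 7 (126699773 to 126707787, minus strand). Coro1a measured 1599.2, 1544.8, 1606.2 and 1648.6 FPKM in Nrp-1+ replicates 1 to 4 and 1739.1, 1756.5, 1753.0 and 1760.7 FPKM in Nrp-1- replicates 1 to 4. All Nrp-1- libraries lay within a narrow band above the Nrp-1+ libraries. Coro1a fell from 1752.3 ± 9.38 to 1599.7 ± 42.6 FPKM, a log2 fold change of -0.13 ± 0.026 (SE; limma adjusted p = 0.00492). The call was lost with a fixed sum (log2 fold change -0.069, limma adjusted p = 0.1) and with quantile normalization (-0.067, limma adjusted p = 0.788).

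The other coronins did not follow Coro1a. Coro1c rose from 31.4 ± 0.498 to 38.6 ± 1.01 FPKM (log2 fold change 0.29, limma adjusted p = 4.29e-05), and Coro7, a Golgi-linked coronin, rose from 35.1 ± 0.638 to 39.0 ± 0.850 FPKM (0.15, limma adjusted p = 0.00149). Coro1b was 168.9 against 170.5 FPKM and Coro2a was 75.4 against 72.8 FPKM in Nrp-1+ against Nrp-1- iTreg, and neither was called (limma adjusted p = 0.611 and 0.122). Coro1a held 82.9% to 83.4% of the summed coronin FPKM in Nrp-1+ and 84.9% to 85.1% in Nrp-1- libraries. Of the 25 relatives counted here, 9 passed the filter, and 4 of these were called higher and 1 lower, beside 20.9% and 20.0% of all tested genes. The 1 called lower, Trip6, passed the filter only through the group where it was higher. The calls of the 5 called relatives held under size factors, quantile normalization, the fixed sum and the GC and length correction.

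**Figure D2:**
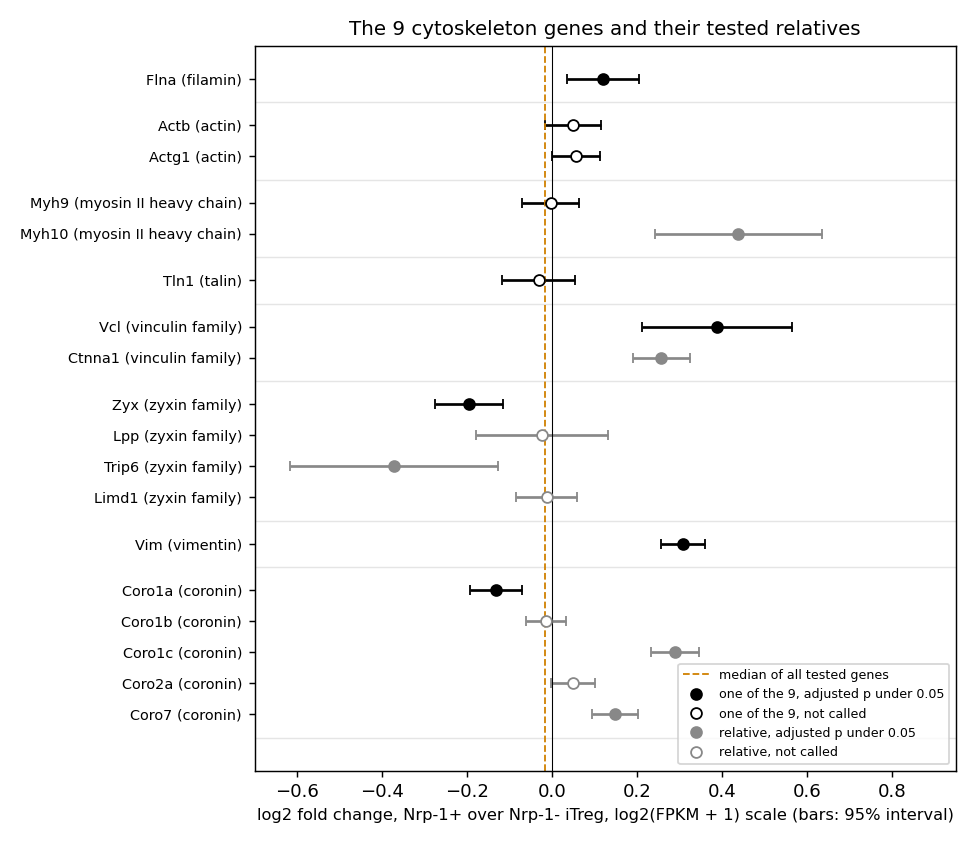
Log2 fold changes of the 9 genes (black) and 9 tested relatives (grey), Nrp-1+ over Nrp-1- iTreg on the log2(FPKM + 1) scale, with bars for the 95% interval, filled points for an adjusted p under 0.05 and a dashed line at the median of all tested genes. Vcl and Ctnna1 lie on the same side of 0, whereas Coro1a (-0.13) and Coro1c (0.29) lie on opposite sides.

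The fold changes were computed under 5 scalings: the deposited FPKM, median-of-ratios size factors, quantile normalization (which gives every library the same distribution of values), the fixed sum over all genes except short RNA genes, and a library-wise correction for GC content and length. Quantile normalization included the 270 tested short RNA genes, which the fixed sum left out. With quantile normalization the SE was 0.179 in place of 0.0224 for Vim and 0.171 in place of 0.0265 for Coro1a. For Actb it was 0.141 in place of 0.0286, and for Tln1 0.0404 in place of 0.0377. The part of the short RNA genes in these wider errors was not tested. Vcl was called under all 5 scalings. Vim and Flna were called under 4, all but quantile normalization. Zyx was called under 4, all but the fixed sum, and Coro1a under 3. With the fixed sum, the 9 genes gave 5 higher and 0 lower calls in place of 3 and 2, and all tested genes gave 2746 higher and 971 lower calls in place of 2189 and 2093. The point estimates of Myh9, and of Tln1 with the fixed sum, turned from negative to positive without a call.

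**Figure D3:**
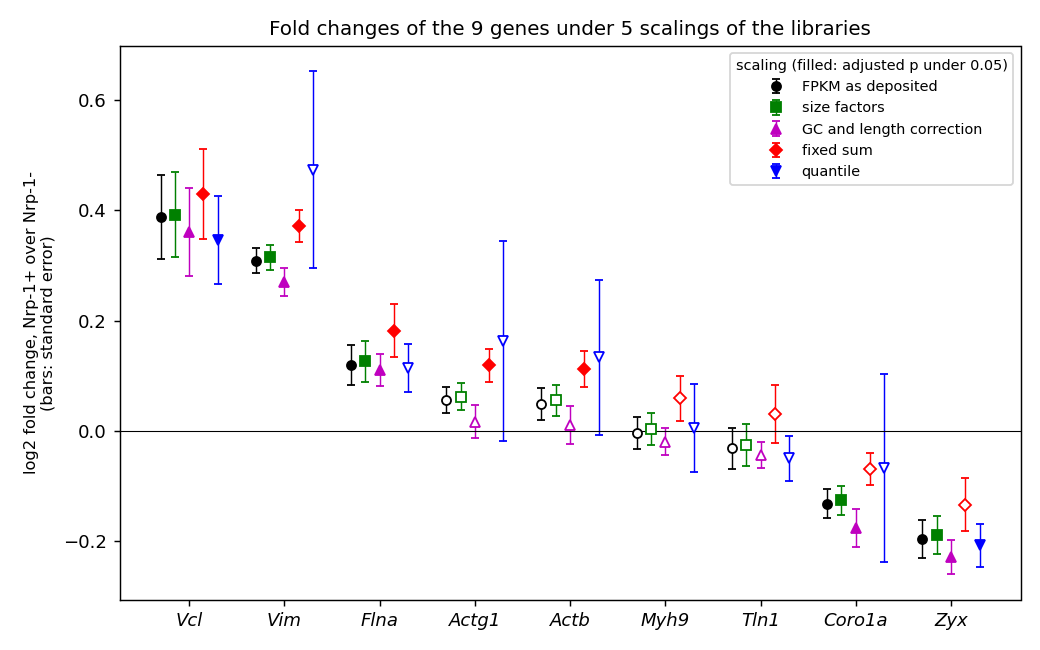
Log2 fold changes of the 9 genes, Nrp-1+ over Nrp-1- iTreg, under 5 scalings of the libraries, with bars for the standard error and filled symbols for an adjusted p under 0.05. Vcl, Vim and Flna are above 0 and Coro1a and Zyx below 0 under every scaling, while Actb and Actg1 are filled only with the fixed sum.

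The promoters were searched for the CArG box, the site of serum response factor (SRF), which with its actin-sensing partner MRTF regulates many actin genes. The letters searched were CC, then 6 letters each A or T, then GG, which read the same way on the other strand. Within 250 bases before the start in the RefSeq promoter table of GRCm38.p6, the box was present in 1.47% of 32851 windows and in 1.62% of 27025 genes. Of the 9 genes, 8 had a promoter in the table. The box occurred in Actg1, with its first base 90 bases before the start, and in Vcl, 227 bases before the start, and these letters were not in the windows of Flna, Myh9, Tln1, Zyx, Vim and Coro1a. Each box is shown in capitals with the neighbouring bases on the strand of the gene, Actg1 at chr11:120348566-120348595 (minus strand) and Vcl at chr14:20929161-20929190 (plus strand).
Actg1: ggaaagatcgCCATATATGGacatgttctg
Vcl: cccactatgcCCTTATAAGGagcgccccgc

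Of these genes with a box, Vcl was called higher and Actg1 was not called. Srf itself fell from 24.1 ± 1.04 FPKM in Nrp-1- to 21.3 ± 0.840 FPKM in Nrp-1+ iTreg (log2 fold change -0.17, limma adjusted p = 0.00893), a call lost with the fixed sum. Mkl1, which encodes MRTF-A, was 38.6 ± 0.915 and 37.0 ± 0.701 FPKM and was not called (log2 fold change -0.059, limma adjusted p = 0.0850). Of the 7 SRF and MRTF genes, 0 were called higher and 1, Srf, lower, 14.3% beside 40.9% of all tested genes. With quantile normalization or the GC and length correction 3 were called lower, namely Srf, Mkl1 and Elk4.

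The wider actin system, with 1 list of septins and lamins, filament systems other than actin, was described by 10 lists of 175 genes. Of these genes, 169 were in the table and 149 were tested. Of these, 30 were called higher and 37 lower in Nrp-1+ iTreg and 82 were not called, so 45.0% were called, beside 40.9% of all tested genes. The split depended on the scaling, with 39 higher and 14 lower with the fixed sum and 24 higher and 49 lower after correction for GC content and length. All tested genes shifted likewise: with the fixed sum 73.6% of the calls in the lists and 73.9% of all calls were higher, and after the GC and length correction 32.9% and 40.0% were, with 1838 higher and 2756 lower calls over all genes. The median log2 fold change of the 149 genes was -0.025, beside -0.016 for all tested genes.

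**Figure D4:**
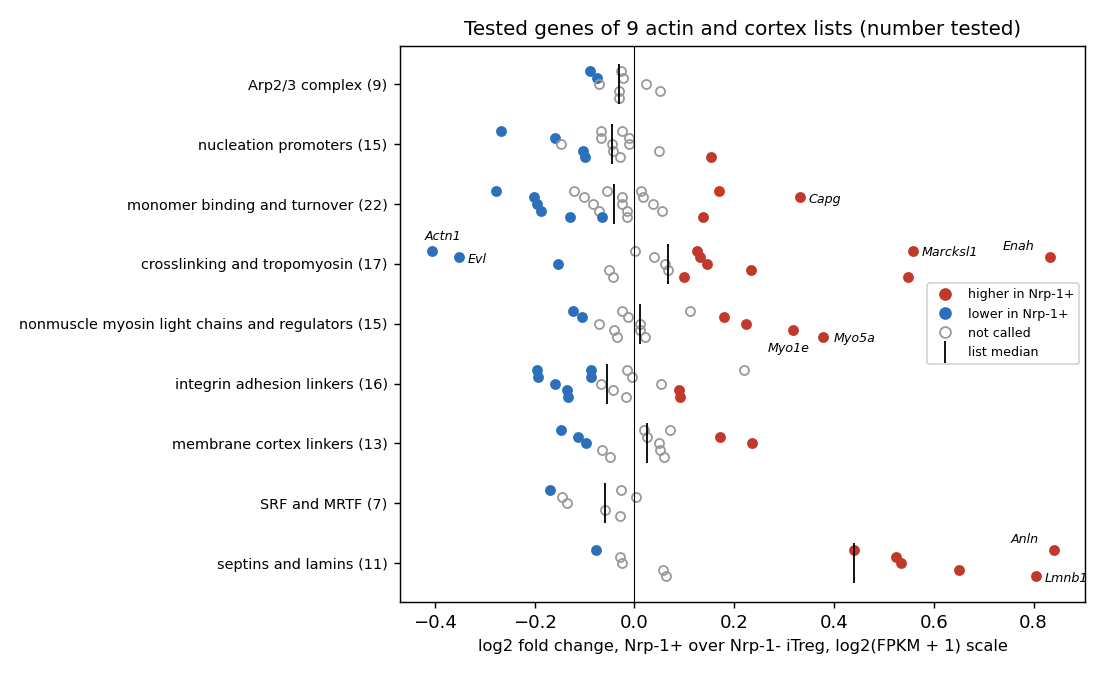
Log2 fold changes, Nrp-1+ over Nrp-1- iTreg, of the 125 tested genes of 9 actin, cortex, septin and lamin lists, 1 row per list with the number tested. Red marks genes called higher, blue genes called lower, open circles genes not called and a black bar the list median. Most lists have medians between -0.059 and 0.068, and the septin and lamin list has its median at 0.44.

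Of 9 tested Arp2/3 complex genes, whose product nucleates branched actin, 0 were called higher and 2 lower, 22.2% beside 40.9% of all tested genes. Arpc2 fell by 0.088 and Arpc3 fell by 0.074 on the log2 scale (limma adjusted p = 0.0225 and 0.0419). Both calls were lost with the fixed sum, with quantile normalization and with a block for the replicate number. The call for Arpc2 was also lost with the GC and length correction, and that for Arpc3 with size factors. Of 15 tested nucleation promoters, 1 was called higher and 4 lower, 33.3% beside 40.9% of all tested genes. With the fixed sum 1 was called higher and 1 lower, where Abi1, Was and Wipf1 were lost. Cyfip1, a subunit of the WAVE complex, rose from 6.64 to 7.49 FPKM (log2 fold change 0.15, limma adjusted p = 0.00875). Abi1, of the same complex, fell from 89.0 to 79.7 FPKM (-0.16, limma adjusted p = 0.00275). Wasl, which encodes N-WASP, fell from 6.71 to 5.40 FPKM (-0.27, limma adjusted p = 0.00327).

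Of 22 tested genes for monomer binding and filament turnover, 3 were called higher and 6 lower, 40.9%, the same share as the 40.9% of all tested genes. With the fixed sum the higher and lower calls turned to 6 and 3, with Cap1, Limk2 and Ssh2 lost from the lower calls. The higher call of Dstn was lost with quantile normalization, the GC and length correction and the replicate block. The abundant genes of this list were not called: Tmsb4x, for the monomer buffer thymosin β4, was 10749 ± 427 FPKM in Nrp-1+ and 11387 ± 434 FPKM in Nrp-1- iTreg, Pfn1, for profilin, was 1309 ± 27.3 and 1332 ± 35.4 FPKM, and Cfl1, for the severing protein cofilin, was 1006 ± 16.7 and 1023 ± 29.9 FPKM (limma adjusted p = 0.194, 0.512 and 0.515). Capg, a filament end capper of the gelsolin family, rose from 257.0 ± 13.3 to 323.3 ± 9.77 FPKM (log2 fold change 0.33, limma adjusted p = 0.000355). Limk1, a kinase that inactivates cofilin, rose from 7.67 to 8.76 FPKM (0.17, limma adjusted p = 0.00605). The other kinase gene of this pair, Limk2, looked at after its value was seen, fell from 23.3 ± 0.477 to 21.2 ± 0.386 FPKM (-0.13, limma adjusted p = 0.00319). Gelsolin itself, Gsn, fell from 34.8 to 30.2 FPKM (-0.20, limma adjusted p = 0.00295), and Gmfg, a leukocyte factor that takes branched networks apart, fell from 197.5 ± 10.4 to 162.8 ± 3.98 FPKM (-0.28, limma adjusted p = 0.000846).

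Among 17 tested crosslinking, tropomyosin and related genes, 8 were called higher and 3 lower (5 and 2 with quantile normalization), in all 64.7% beside 40.9% of all tested genes. Some close relatives moved in opposite directions. Others moved together, such as Tpm3 and Tpm4, both higher (log2 fold changes 0.125 and 0.146, calls lost with quantile normalization). The α-actinin gene Actn1 fell from 97.3 ± 1.42 to 73.2 ± 1.66 FPKM (log2 fold change -0.41, limma adjusted p = 3.71e-06), whereas Actn4 rose from 74.5 ± 0.842 to 87.8 ± 0.693 FPKM (0.23, limma adjusted p = 1.97e-05). Of the Ena/VASP genes, whose products lengthen filaments, Enah rose from 3.90 ± 0.437 to 7.70 ± 0.349 FPKM (0.83, limma adjusted p = 2.76e-05), and Evl fell from 119.4 ± 5.15 to 93.3 ± 0.710 FPKM (-0.35, limma adjusted p = 5.75e-05). Vasp, looked at after its value was seen, fell from 182.5 to 164.0 FPKM (-0.15, limma adjusted p = 0.000762), a call lost with quantile normalization. Marcksl1, for a membrane-bound actin crosslinker, rose from 5.99 to 9.27 FPKM (0.56, limma adjusted p = 0.00028).

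**Figure D5:**
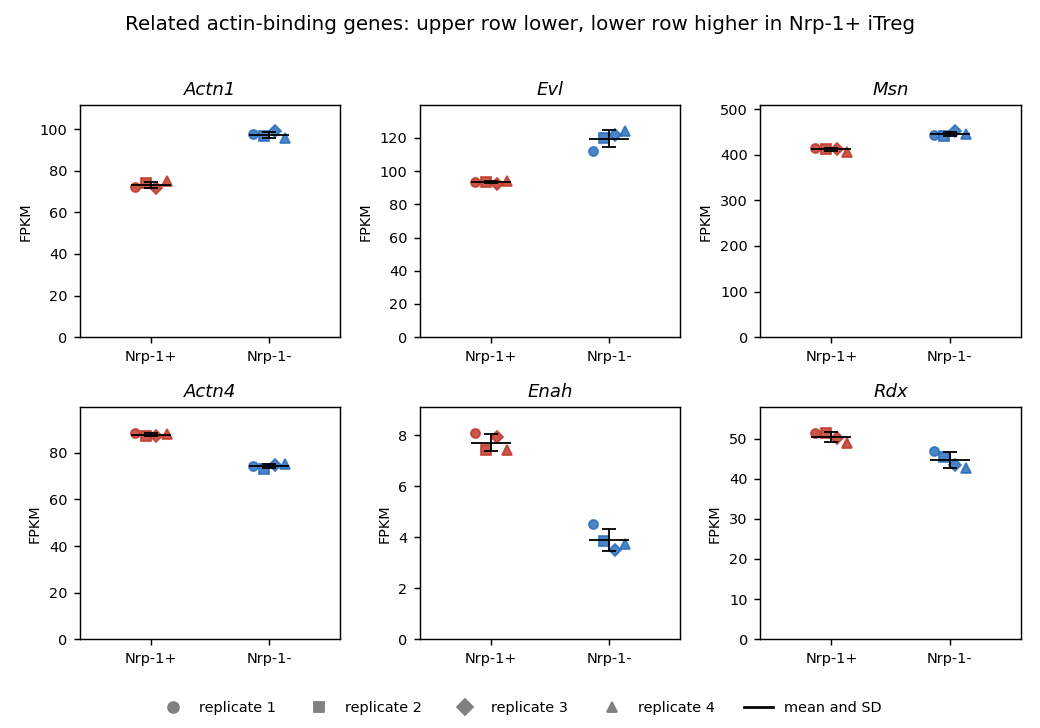
FPKM of 6 actin-binding genes in 4 Nrp-1+ and 4 Nrp-1- iTreg libraries on linear axes from 0, with marker shapes for replicate numbers and lines for the group mean and SD. The upper row (Actn1, Evl, Msn) is lower and the lower row (Actn4, Enah, Rdx), of the same 3 families, is higher in Nrp-1+ iTreg, with no overlap between groups in any panel; the call for Msn was lost with quantile normalization and the fixed sum.

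The membrane linkers held a like case. Of the ERM genes, whose products tie actin to membrane proteins, Msn (moesin), the most abundant, fell from 445.4 ± 4.38 to 411.7 ± 3.70 FPKM (log2 fold change -0.11, limma adjusted p = 0.00162), a call lost with quantile normalization and the fixed sum. Rdx (radixin) rose from 44.7 ± 1.92 to 50.4 ± 1.17 FPKM (0.17, limma adjusted p = 0.00423). Ezr (ezrin) was 158.5 ± 2.69 in Nrp-1+ and 155.8 ± 2.00 FPKM in Nrp-1- iTreg and was not called (limma adjusted p = 0.36). In all, 2 of 13 tested membrane cortex genes were called higher and 3 lower, 38.5% beside 40.9% of all tested genes. With quantile normalization or the fixed sum 0 were called lower, where Msn, Selplg and Add1 were all lost. Cd44, the hyaluronan receptor, rose from 19.2 to 22.8 FPKM (0.24, limma adjusted p = 0.000736), and Selplg, for the selectin ligand PSGL-1, fell from 381.6 to 344.7 FPKM (-0.15, limma adjusted p = 0.0037).

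Of 15 tested genes for myosin light chains, other myosins and their regulators, 4 were called higher and 2 lower, 40% beside 40.9% of all tested genes. Myl6, an essential light chain partner of Myh9, was 1192 ± 15.8 in Nrp-1+ and 1253 ± 52.7 FPKM in Nrp-1- iTreg and was not called (limma adjusted p = 0.128). The regulatory light chain gene Myl12b fell by 0.11 and the myosin phosphatase subunit gene Ppp1r12a fell by 0.12 on the log2 scale (limma adjusted p = 0.0266 and 0.021), and both calls were lost with the fixed sum. The call for Myl12b was also lost with quantile normalization and with the replicate block. The unconventional myosins Myo5a and Myo1e rose at low levels, from 2.69 to 3.81 and from 0.865 to 1.32 FPKM (log2 fold changes 0.38 and 0.32, limma adjusted p = 0.00243 and 0.0164). The call for Myo1e, 1 of the 4 higher calls, was lost with quantile normalization. Only the Nrp-1+ mean of Myo1e was above 1 FPKM, so it passed the filter through the group where it was higher.

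Of 16 tested integrin adhesion linkers, 2 were called higher and 7 lower, in all 56.2% beside 40.9% of all tested genes. Fermt3, Fyb, Rap1b and Tes, all among the lower, lost their calls both with quantile normalization, which left 3 lower calls, and with the fixed sum, which left 2 lower and gave 4 higher calls. Ptk2b, for the adhesion kinase Pyk2, fell from 82.7 to 72.1 FPKM (log2 fold change -0.20, limma adjusted p = 0.000198), and Apbb1ip, for RIAM, which brings talin to the membrane, fell from 79.2 to 69.2 FPKM (-0.19, limma adjusted p = 0.00276). Parvg, for γ-parvin, and Git1, for an adhesion scaffold, rose by 0.092 and 0.090 on the log2 scale (limma adjusted p = 0.0246 and 0.0255), and both calls were lost with the GC and length correction. The call for Parvg was also lost with quantile normalization, and that for Git1 with the replicate block.

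The septins and lamins, 11 tested genes for cytoskeletal GTPases, their scaffold anillin and nuclear filaments, had 6 genes called higher and 1 lower, beside 20.9% and 20.0% of all tested genes, and a median log2 fold change of 0.44, beside -0.016 for all tested genes. Anln, for the anillin that organises the contractile ring in dividing cells, rose from 5.74 ± 0.373 to 11.1 ± 0.200 FPKM (log2 fold change 0.84, limma adjusted p = 2.27e-06). Lmnb1, for lamin B1 of the nuclear envelope, rose from 86.7 ± 2.01 to 152.2 ± 2.53 FPKM (0.80, limma adjusted p = 2.33e-07). Sept1 was the gene called lower, falling from 397.6 to 376.8 FPKM (-0.077, limma adjusted p = 0.0162), a call lost with quantile normalization, the fixed sum and the replicate block. The 15 cell cycle genes rose beside them, with a median log2 fold change of 0.90, and their part in these values was not tested.

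The genes whose profiles over the 8 libraries lay nearest to 3 of the 9 were found by the root mean square distance of log2(FPKM + 1), centred on each gene, among 10197 genes. Nearest to Flna were 5730455P16Rik (distance 0.0205), Atp10a (0.0219) and Nin (0.0239). Nearest to Actb were H2afy (0.0154), Ipmk (0.0160) and, at the third place, the other actin gene Actg1 (0.0170, on the log2 scale). Nearest to Vim were Mdfic (0.0190), Itpripl1 (0.0192) and Maz (0.0209), all with log2 fold changes of 0.29 to 0.33. Fold changes near that of Vim follow from choosing genes by their distance over the same 8 libraries.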

How the data were processed

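RNA sequencing measured gene expression in 4 Nrp-1+ and 4 Nrp-1- iTreg libraries, grouped by the labels. Per the study's methods, the authors processed reads in CLC Genomics Workbench and computed FPKM with Cufflinks, and the deposited table gives every symbol an FPKM in each library. The submitters' notes name GRCm38/mm10. Aligner settings and annotation are not given in the sources used here, and the sources name different library kits, 1 of them directional. FPKM are not counts, so no count model was used and no counting interval is given.

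The 10467 of 23361 genes that averaged 1 FPKM or more were fitted as log2(FPKM + 1) with limma 3.58.1 in R 4.3.3 (lmFit, eBayes with trend, no block), two-sided, with Benjamini-Hochberg adjustment over all tested genes. The script was tested on simulated data: of 200 genes changed in this comparison of 10467 genes, it called 94% at a 2-fold change and 23% at a log2 change of 0.15. In the data 40.9% of tested genes were called, far more than were changed in the simulation. These 2 percentages therefore do not give the power for small changes in the data. The 3 ratios within libraries were tested by exact permutation (scipy 1.17.1, numpy 2.4.6, pandas 2.3.3, Python 3.11.15, with matplotlib 3.10.9 for plots). Gene positions, exon overlaps, lengths and GC content (for 99.4% of tested genes) came from GENCODE M21 on GRCm38, and promoters from RefSeq.

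Named were all 9 genes, their relatives with a mean FPKM of at least 1, up to 2 genes called higher and 2 called lower with the largest change in each of the 10 lists, 10 genes fixed by name, Nrp1 and Foxp3, and the 3 nearest profiles. The 9 genes and the lists were chosen with earlier results of these data known. List genes absent from the table were not analysed here, and 1 relative and 1 of the 10 lists are not reported here by themselves. Alternatives were other pseudocounts (0.1, 0.5), filters, scalings, no trend, a GC and length correction, a replicate block and leaving out each library. Same-numbered libraries did not deviate together (mean r = -0.262 over 4 pairs, -0.0737 without short RNA genes), so the numbers were not taken as pairs.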

Additional observations from a re-analysis of the deposited data

Results flagged for a closer look

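Single libraries that stood apart from the other 3 of their group were looked for in 122 groups of 4 values (Dixon's test at the 95% level), in which chance gives about 1 in 20, or 6.1 groups, and 8 were found. Flna in Nrp-1+ replicate 4 was 130.1 FPKM, against 121.0 to 122.4 FPKM in the other Nrp-1+ libraries. The Actb share of the actin FPKM in Nrp-1- replicate 3 was 60.02%, against 60.37% to 60.43%. In Nrp-1+ replicate 4, Arpc2 was 365.4 FPKM against 376.5 to 378.5 FPKM. In the same library Hmha1 was 254.8 FPKM against 241.4 to 243.2 FPKM. Srf was 22.57 FPKM there against 20.84 to 20.96 FPKM, and Mkl1 was 38.08 FPKM against 36.59 to 36.77 FPKM. Rhob in Nrp-1- replicate 2 was 9.097 FPKM against 7.995 to 8.123 FPKM. Cfl1 in Nrp-1+ replicate 1 was 1031.0 FPKM against 996.4 to 999.1 FPKM. Of the 8 values, 5 came from Nrp-1+ replicate 4, the library in which 7 of the 9 genes had their highest Nrp-1+ value.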

How the results depend on the processing

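Of 276 results under an alternative, 242 kept their direction and their side of the threshold (for counts, stayed within 1.5 times). Quantile normalization gave limma adjusted p-values of 0.0733 for Flna (log2 fold change 0.113), 0.0704 for Vim (0.474) and 0.788 for Coro1a (-0.0674). With it 1 of the 9 genes was called higher and 1 lower, 23 list genes were called lower, and the Flna to Actb log2 difference was -0.0189. The fixed sum without short RNA genes gave log2 fold changes of 0.112 for Actb, 0.119 for Actg1, -0.134 for Zyx and -0.0691 for Coro1a, 5 of the 9 genes called higher and 0 lower, and 14 list genes called lower. Myh9 turned positive with size factors (0.00298), quantile normalization (0.00478), the fixed sum (0.0592) and without Nrp-1+ replicate 3 (0.0116) or Nrp-1- replicate 1 (0.0112), and Tln1 turned positive with the fixed sum (0.0304). The cause was not tested. With 1 library left out, log2 fold changes ran from 0.0924 to 0.141 for Flna, 0.0392 to 0.0638 for Actb, 0.0467 to 0.0649 for Actg1, -0.0211 to 0.0116 for Myh9, -0.0525 to -0.00158 for Tln1, 0.323 to 0.429 for Vcl, -0.213 to -0.173 for Zyx, 0.303 to 0.317 for Vim and -0.146 to -0.115 for Coro1a, and the Tln1 to Vcl log2 difference from -0.686 to -0.516 (exact p = 0.0571, the smallest that 3 against 4 allow). The 9 genes then gave 2 to 3 higher and 2 lower calls. With a filter at 5 FPKM, Vcl was not tested. The replicate block left the 3 higher and 2 lower calls of the 9 genes as they were and gave 26 higher and 30 lower list genes. Exchange within pairs gave the Tln1 to Vcl difference of -0.607 an exact p of 0.125, the smallest that 4 pairs allow. No library correlated best with its own number (0 of 4). Depth is known only roughly, and Vcl rests on about 140 to 310 fragments per library.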

Other observations

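Further genes of the lists with large differences, chosen after their values were seen, were also higher in Nrp-1+ iTreg. Tagln2, for the actin-bundling transgelin 2 of T cells, rose from 139.3 ± 3.51 to 204.3 ± 2.04 FPKM (SD, n = 4; log2 fold change 0.55, limma adjusted p = 7.35e-07). The lamin gene Lmnb2 rose from 6.88 ± 0.809 to 11.3 ± 0.325 FPKM (0.65, limma adjusted p = 0.000198), and Lmna rose from 1.27 ± 0.461 to 2.24 ± 0.221 FPKM (0.53, limma adjusted p = 0.0177). The septin genes Sept8 and Sept11 rose from 8.75 ± 0.322 to 13.0 ± 0.368 and from 13.3 ± 0.816 to 18.4 ± 0.399 FPKM (log2 fold changes 0.52 and 0.44, limma adjusted p = 8.48e-06 and 0.000101). None of these calls was lost under the scalings, the GC and length correction or the replicate block.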
